A study of Rattus norvegicus with 10 samples.

Results

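The genes described here are the developmental transcription factor families among the genes that the study listed as changed in myoblasts after unloading. A gene belongs to the group when its symbol in the study's list of differentially expressed genes starts with 1 of 28 family prefixes, such as Fox, Sox, Msx, Hey or Gata. The rule found 26 genes of the 770 with a symbol in that list, and all 26 were present in the count table of 32622 Ensembl genes. They came from 17 of the prefixes, while 11, among them Hox, Tbx, Lhx, Mef2 and Id, matched no listed gene. The members were thus chosen by the measured changes against Control, and their differences from Control are given below as a description, with no test. By those listings 12 members differed at HS1, 5 at HS3, 14 at HS7 and 12 at HS14, and 13 members were listed at more than 1 time.

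The cells were primary skeletal muscle progenitors isolated from the soleus muscle of 3-month-old male Wistar rats. The rats were either kept in cages (Control) or hung by hindlimb suspension, so that the soleus bore no weight, for 1, 3, 7 or 14 days (HS1, HS3, HS7 and HS14). All 5 groups were treated alike after dissection, with collagenase digestion, growth in serum-rich medium on Geltrex and pre-plating, a step that removes fast-adhering fibro-adipogenic cells, before RNA was taken about a day later from subconfluent cultures. Each group had 2 libraries, and the sources used here do not say whether these came from different animals, so p-values measure only the spread between libraries, which may be technical. The cells were thus out of the unloaded muscle when lysed, and every value below is a value of a culture rather than of the muscle.

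Developmental transcription factors bind DNA through a shared family domain and set which programme a precursor cell follows. In limb muscle, one set of them (Twist, Msx, Osr, Ebf and Nr2f proteins) is known mainly from connective tissue and mesenchymal precursors, where several hold differentiation back. Hey proteins are repressors switched on by Notch receptors, the signal that keeps satellite cells from differentiating. Sox proteins serve in many precursors, and some of them act in satellite cells or in the choice of fibre type.

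Total counts per library lay between 20200972 and 28175200, and the level of 3 counts, taken as the smallest detectable, lay between 0.106 and 0.149 CPM (read counts scaled to a common library size after TMM normalization). The lowest value of a member was that of *Msx2* in HS7 replicate 1, 0.162 CPM. Among counts from 1 to 20, between 69.4% and 72.0% were even numbers, so part of the low counts may stand for fewer independent fragments than their size. Levels are compared between libraries and not between genes, since gene lengths of the annotation used for counting were not available. A fold change below is a log2 difference with its standard error (SE). That SE was worked back from the edgeR test, as the size of the change over the square root of the F statistic. A DEG here is a gene past both limits of the study, an adjusted p of 0.01 and a change of 1.5 up or down on that scale, and the adjusted p (Benjamini-Hochberg, over the whole table) comes from the quasi-likelihood test of edgeR. Around the fold limit, *Meox2* in HS14 lay just inside at -1.51 and *Twist2* in HS7 just outside at -1.47.

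Of the 26 genes, 16 had their highest group mean in HS3, as 22.3% of the 13691 genes expressed in these cultures did. A further 6 peaked in HS7 (25.9% of all genes), 3 in HS1 (21.7%), 1 in Control (9.12%) and 0 in HS14 (20.9%). The 16 genes highest in HS3 were *Dlx2*, *Ebf1*, *Ebf2*, *Foxc1*, *Foxc2*, *Foxq1*, *Gata6*, *Klf4*, *Meox2*, *Msx1*, *Msx2*, *Nr2f1*, *Nr2f2*, *Osr1*, *Runx1t1* and *Twist2*. Those highest in HS7 were *Egr3*, *Hey2*, *Heyl*, *Sox6*, *Sox8* and *Sox11*, those highest in HS1 were *Gata3*, *Pax8* and *Six2*, and *Pitx1* was highest in Control. Both HS3 libraries lay above the other 8 libraries for 15 of the 26 members, against 12.8% of all expressed genes. Both HS1 libraries lay below the other 8 for 7 members, against 11.5% of all genes. Since members were taken for differing from Control, these counts describe them and test nothing. In bulk RNA, fewer cells of a type and less RNA per cell cannot be told apart.

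**Figure D1:**
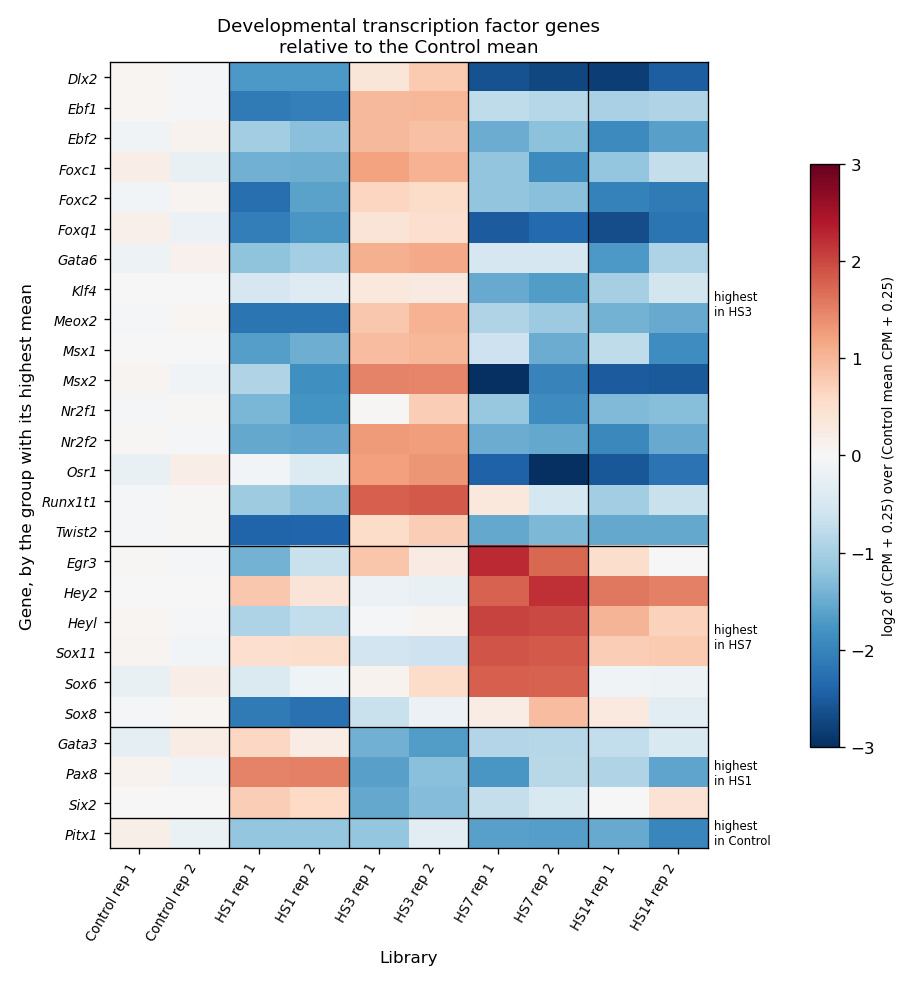
Each row is 1 of the 26 genes and each column 1 of the 10 libraries, with colour for log2 of (CPM + 0.25) over (Control mean CPM + 0.25), blue below and red above Control, limited at 3 on either side. The 16 genes in the upper block are red in both HS3 libraries or near Control there (*Nr2f1* in replicate 1) and mostly blue in HS1, HS7 and HS14, while the 6 genes of the second block are reddest in HS7.

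The forkhead genes followed that course. *Foxc1* and *Foxc2* encode related forkhead proteins of paraxial mesoderm and vessel development. *Foxc1* measured 3.56 and 2.58 CPM in Control, 0.983 and 0.955 at HS1, 7.40 and 6.60 at HS3, 1.21 and 0.632 at HS7 and 1.24 and 1.77 at HS14. *Foxc2* measured 4.99 and 5.54 CPM in Control, 0.901 and 1.56 at HS1, 8.31 and 7.80 at HS3, 2.19 and 2.06 at HS7 and 1.11 and 1.01 at HS14. For both genes the HS3 libraries were the highest of the 10 and the Control libraries came next, with no overlap with the other groups. *Foxc1* rose by 2.85 (SE 0.29) from HS1 to HS3 (edgeR adjusted p = 1.45e-09) and fell by 2.94 (SE 0.32) from HS3 to HS7 (edgeR adjusted p = 7.62e-06), and *Foxc2* rose by 2.72 (SE 0.28) and fell by 1.94 (SE 0.24) over the same steps. From HS7 to HS14 *Foxc1* had a change of 0.70 and *Foxc2* of -0.99, and neither passed (edgeR adjusted p = 0.237 and 0.0416).

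*Foxq1* encodes a forkhead protein known from epithelia and hair. Its level was 16.7 and 13.4 CPM in Control, 3.36 and 4.30 at HS1, 19.7 and 21.4 at HS3, 2.47 and 2.77 at HS7 and 2.18 and 3.12 at HS14. The HS7 and HS14 libraries overlapped and all 4 lay below HS1. Its log2 fold change from Control was 0.45 (SE 0.13) in HS3, against -1.97 (SE 0.17) in HS1, -2.51 (SE 0.19) in HS7 and -2.52 (SE 0.18) in HS14. *Foxc1* and *Foxq1* are near neighbours on rat chromosome 17, with 1 protein-coding gene between them in the RefSeq annotation of GRCr8. Of the 26 genes, which lie on 12 chromosomes, no other members stood closer together than *Ebf2* and *Egr3*, with 26 genes between them on chromosome 15. The 2 forkhead neighbours shared their peak in HS3 with members on other chromosomes, such as *Nr2f2* on chromosome 1, and a shared control was not tested. For this closest pair the 100 bases before the RefSeq starts are shown, with CG dinucleotides, which cluster in many developmental promoters, in capitals. They are written 5′ to 3′ on the minus strand of GRCr8, *Foxc1* at chr17:32844101-32844200 with 7 CG and *Foxq1* at chr17:33124088-33124187 with 11 CG.
Foxc1: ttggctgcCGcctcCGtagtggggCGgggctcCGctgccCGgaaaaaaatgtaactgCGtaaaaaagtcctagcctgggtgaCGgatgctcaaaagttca
Foxq1: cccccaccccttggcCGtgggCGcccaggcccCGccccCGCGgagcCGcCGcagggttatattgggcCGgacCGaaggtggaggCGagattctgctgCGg

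*Nr2f1* and *Nr2f2* encode the orphan nuclear receptors COUP-TFI and COUP-TFII, the latter known for vein identity and for mesenchymal precursors. *Nr2f2* was found at 19.6 and 18.9 CPM in Control, 6.51 and 6.29 at HS1, 47.2 and 46.3 at HS3, 6.64 and 6.52 at HS7 and 4.87 and 6.62 at HS14. Its HS1, HS7 and HS14 libraries lay within a narrow band well below Control, and HS3 stood apart above all. *Nr2f2* rose by 2.87 (SE 0.13) from HS1 to HS3 (edgeR adjusted p = 1.69e-17) and fell by 2.85 (SE 0.12) from HS3 to HS7 (edgeR adjusted p = 2.13e-09). *Nr2f1* had 4.08 and 4.33 CPM in Control, 1.47 and 1.04 at HS1, 4.31 and 7.201 at HS3, 1.78 and 0.949 at HS7 and 1.52 and 1.601 at HS14. Here the HS3 libraries differed from each other and the lower of them was level with Control, a difference from Control of 0.46 (SE 0.24). The gene fell by 2.10 (SE 0.35) from HS3 to HS7 (edgeR adjusted p = 0.000431), but without HS3 replicate 2 the fall of 1.68 did not pass (edgeR adjusted p = 0.0150).

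Among the homeobox genes, *Msx1* and *Msx2* encode repressors that keep limb mesenchyme undifferentiated, and MSX1 is known to hold back *MyoD*. *Msx1* measured 7.05 and 7.17 CPM in Control, 2.09 and 2.43 at HS1, 13.6 and 14.3 at HS3, 4.53 and 2.37 at HS7 and 4.08 and 1.77 at HS14. *Msx2* measured 3.33 and 2.88 CPM in Control, 1.56 and 0.694 at HS1, 9.12 and 8.95 at HS3, 0.162 and 0.593 at HS7 and 0.346 and 0.337 at HS14. *Msx2* thus had the widest range of all members between group means, 26.5-fold, with the HS7 and HS14 libraries close to the detectable level. It rose by 2.99 (SE 0.29) from HS1 to HS3 (edgeR adjusted p = 6.64e-10) and fell by 4.57 (SE 0.38) from HS3 to HS7 (edgeR adjusted p = 6.02e-07). For *Msx1* the 2 changes were 2.63 (SE 0.21) and -2.04 (SE 0.25), and its HS1, HS7 and HS14 libraries overlapped.

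*Meox2* encodes a homeobox protein of somites and limb muscle. Its values were 14.9 and 16.3 CPM in Control, 3.19 and 3.21 at HS1, 27.6 and 32.6 at HS3, 8.30 and 7.23 at HS7 and 5.67 and 5.27 at HS14. The 5 groups did not overlap, in the order HS1, HS14, HS7, Control and HS3. *Meox2* had the largest rise of the members from HS1 to HS3, 3.24 (SE 0.16, edgeR adjusted p = 1.53e-16). *Dlx2*, a homeobox gene of forebrain and craniofacial development, had 3.13 and 2.88 CPM in Control, 0.737 and 0.738 at HS1, 3.95 and 5.33 at HS3, 0.283 and 0.237 at HS7 and 0.207 and 0.337 at HS14. It fell by 4.15 (SE 0.41) from HS3 to HS7 (edgeR adjusted p = 3.01e-06), and like *Msx2* it was too low in HS7 and HS14 to pass the expression filter for that comparison.

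*Six2* and *Pitx1* did not follow this course. *Six2*, a homeobox gene of kidney and tendon precursors, had 3.88 and 3.87 CPM in Control, 6.67 and 6.03 at HS1, 1.17 and 1.43 at HS3, 2.27 and 2.77 at HS7 and 3.91 and 5.35 at HS14. HS3 was lowest and HS1 highest without overlap, and *Six2* fell by 2.27 (SE 0.28) between them (edgeR adjusted p = 7.84e-08). *Pitx1*, which gives the hindlimb its identity, had 3.44 and 2.62 CPM in Control, 1.23 and 1.21 at HS1, 1.22 and 2.39 at HS3, 0.810 and 0.790 at HS7 and 0.899 and 0.590 at HS14. Both Control libraries lay above the other 8, as they did for 2.15% of all expressed genes. Between the suspended groups *Pitx1* passed in 0 of the 4 comparisons made, with edgeR adjusted p from 0.0538 (HS7 against HS3, -1.20) to 0.916 (HS14 against HS7, -0.08).

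*Ebf1* and *Ebf2* encode early B-cell factors, which also act in adipocyte and stromal precursors. *Ebf1* measured 24.1 and 22.5 CPM in Control, 5.20 and 5.42 at HS1, 46.2 and 46.7 at HS3, 13.6 and 12.9 at HS7 and 11.7 and 12.3 at HS14. *Ebf2* measured 26.7 and 31.2 CPM in Control, 14.0 and 12.1 at HS1, 56.6 and 53.4 at HS3, 10.2 and 12.1 at HS7 and 7.50 and 9.14 at HS14. HS3 was highest for both, but *Ebf1* was lowest in HS1 and *Ebf2* lowest in HS14. *Ebf1* was higher in HS14 than in HS1 by 1.15 (SE 0.16, edgeR adjusted p = 2.27e-05). *Ebf2* was lower by 0.68 (SE 0.16, edgeR adjusted p = 0.00214), which did not pass without HS14 replicate 1 (-0.54, edgeR adjusted p = 0.0273) or with DESeq2 (-0.67, adjusted p = 0.0103).

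**Figure D2:**
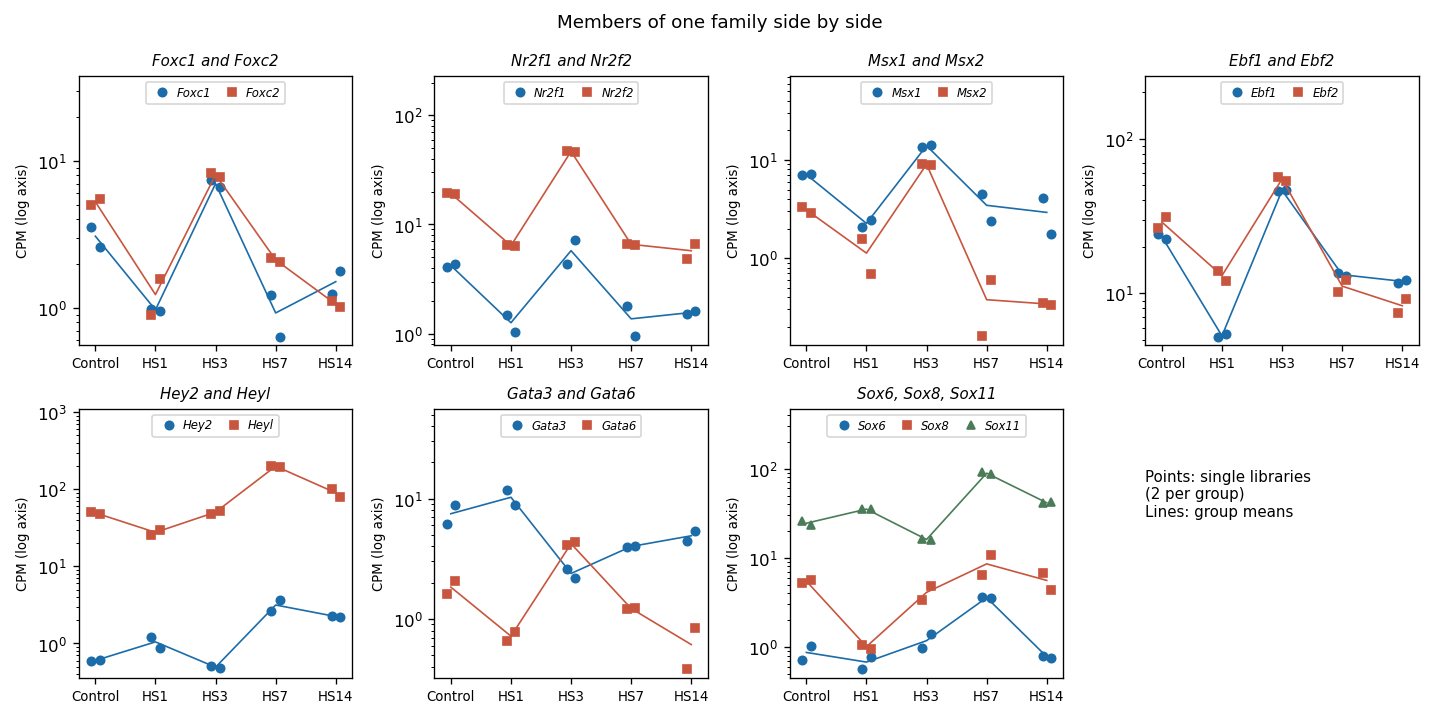
Each panel shows the CPM of genes of 1 family in Control, HS1, HS3, HS7 and HS14 on a log axis, with points for the 2 libraries of a group and lines through the group means. *Foxc*, *Nr2f*, *Msx* and *Ebf* genes and *Gata6* peak in HS3, *Gata3* has its lowest values there, and *Hey* and *Sox* genes peak in HS7.

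*Twist2*, *Osr1* and *Runx1t1* are further genes of mesenchymal precursors. *Twist2*, a basic helix-loop-helix gene whose product holds back myogenic factors, had 19.8 and 20.8 CPM in Control, 3.64 and 3.73 at HS1, 29.9 and 34.1 at HS3, 6.80 and 7.83 at HS7 and 6.81 and 6.87 at HS14. It rose by 3.12 (SE 0.16) from HS1 to HS3 (edgeR adjusted p = 1.18e-16) and fell by 2.15 (SE 0.14) from HS3 to HS7 (edgeR adjusted p = 6.00e-08). *Twist2* was higher in HS14 than in HS1 by 0.87 (SE 0.20, edgeR adjusted p = 0.00212), a difference that did not pass without HS14 replicate 1 (edgeR adjusted p = 0.0121) or with DESeq2 (adjusted p = 0.0144). The HS1 level was thus the lowest of the 5 groups and the HS7 and HS14 levels lay close together.

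*Osr1*, a zinc finger gene that marks fibro-adipogenic precursors in the embryonic limb, had 6.49 and 8.73 CPM in Control, 7.21 and 5.64 at HS1, 18.3 and 19.4 at HS3, 1.21 and 0.632 at HS7 and 1.11 and 1.43 at HS14. Unlike most of the genes highest in HS3, it overlapped with Control in HS1 (-0.24, SE 0.19) and dropped only at the later times. It rose by 1.56 (SE 0.16) from HS1 to HS3 (edgeR adjusted p = 3.40e-09), fell by 4.37 (SE 0.25) from HS3 to HS7 (edgeR adjusted p = 2.09e-08) and was lower in HS14 than in HS1 by 2.37 (SE 0.26, edgeR adjusted p = 1.35e-06). *Runx1t1* encodes a corepressor that joins transcription complexes rather than a Runx protein, and it matched the rule by its name. Its values were 2.77 and 2.88 CPM in Control, 1.23 and 1.04 at HS1, 10.4 and 10.7 at HS3, 3.56 and 1.90 at HS7 and 1.24 and 1.69 at HS14. *Runx1t1* had the largest excess over Control in HS3 of the members, 1.90 (SE 0.18), and its HS7 libraries lay on either side of Control.

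The GATA factors ran in opposite directions from HS1 to HS3, while in HS7 and HS14 the means of both lay below Control. *Gata6*, known from heart, gut and smooth muscle, had 1.62 and 2.05 CPM in Control, 0.655 and 0.781 at HS1, 4.10 and 4.34 at HS3, 1.21 and 1.23 at HS7 and 0.380 and 0.843 at HS14. *Gata3*, known from T cells and several epithelia, had 6.14 and 8.84 CPM in Control, 11.7 and 8.81 at HS1, 2.58 and 2.19 at HS3, 3.97 and 4.03 at HS7 and 4.42 and 5.39 at HS14. HS3 was the highest group for *Gata6* and the lowest for *Gata3*, both without overlap. From HS1 to HS3 *Gata6* rose by 2.56 (SE 0.35, edgeR adjusted p = 6.04e-07) while *Gata3* fell by 2.10 (SE 0.23, edgeR adjusted p = 7.01e-09).

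*Pax8*, a paired-box gene known from thyroid and kidney, stood out in HS1. It had 3.25 and 2.77 CPM in Control, 8.84 and 9.07 at HS1, 0.810 and 1.11 at HS3, 0.729 and 1.58 at HS7 and 1.49 and 0.843 at HS14. The HS3, HS7 and HS14 libraries overlapped with one another and lay below Control, and HS1 lay above it. *Pax8* fell by 3.19 (SE 0.28) from HS1 to HS3 (edgeR adjusted p = 4.44e-11) and was lower in HS14 than in HS1 by 2.94 (SE 0.25, edgeR adjusted p = 5.59e-08).

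The members highest in HS7 include the Notch effectors *Heyl* and *Hey2*, basic helix-loop-helix repressors. *Heyl* measured 51.3 and 47.7 CPM in Control, 25.9 and 29.3 at HS1, 48.3 and 52.8 at HS3, 204 and 195 at HS7 and 100.1 and 79.9 at HS14. *Hey2* measured 0.594 and 0.607 CPM in Control, 1.23 and 0.868 at HS1, 0.507 and 0.477 at HS3, 2.67 and 3.64 at HS7 and 2.28 and 2.19 at HS14. Both genes were highest in HS7 and second in HS14, but in HS1 *Heyl* lay below Control (-0.84, SE 0.09) and *Hey2* above it (0.80, SE 0.49). From HS3 to HS7 *Heyl* rose by 1.96 (SE 0.09, edgeR adjusted p = 2.41e-09) and *Hey2* by 2.65 (SE 0.41, edgeR adjusted p = 0.000164). From HS7 to HS14 *Heyl* fell by 1.14 (SE 0.09, edgeR adjusted p = 6.22e-06), whereas the change of *Hey2*, -0.49 (SE 0.29), did not pass (edgeR adjusted p = 0.215). *Heyl* was higher in HS14 than in HS1 by 1.68 (SE 0.10, edgeR adjusted p = 2.13e-09).

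Promoter windows from RefSeq (GRCr8), 250 bases before to 50 after the gene start, were at hand for 18 of the 26 genes, matched by gene identifier. They were searched on both strands for GTGGGAA, a core sequence of the Notch partner RBPJ, for TATAAA and for CANNTG, the E-box bound by basic helix-loop-helix factors. GTGGGAA stood in 1 of the 18 windows (5.56%), that of *Hey2*, and in 6.29% of all 33469 windows. TATAAA stood in 3 (16.7%, against 14.2% of all), those of *Heyl*, *Klf4* and *Meox2*, and CANNTG in 10 (55.6%, against 72.1% of all). The windows held a median of 20 CG dinucleotides, compared with 7 over all windows. The stretches around the match in both Hey genes, which rose together in HS7, are given 5′ to 3′ on the plus strand with the match in capitals, *Hey2* at chr1:28641009-28641075 (GRCr8) with GTGGGAA at 61 to 55 bases before the start, and *Heyl* at chr5:140793178-140793243 (GRCr8) with TATAAA at 63 to 58 bases before it. These matches are letters in a window and show no binding.
Hey2: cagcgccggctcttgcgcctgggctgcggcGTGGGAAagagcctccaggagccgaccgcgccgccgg
Heyl: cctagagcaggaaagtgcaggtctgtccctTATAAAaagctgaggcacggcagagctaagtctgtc

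Of the Notch pathway, 3 of 12 genes looked for had an identifier, and the study listed all 3 as higher in HS7 than in Control. That choice favoured a rise into HS7 and a fall after it, so only the sizes are described. From HS3 to HS7 all 3 rose, the ligand gene *Dll1* by 1.13 (SE 0.17, edgeR adjusted p = 0.000158) and the receptor genes *Notch1* by 1.32 (SE 0.20, edgeR adjusted p = 0.000262) and *Notch3* by 2.25 (SE 0.09, edgeR adjusted p = 1.41e-09). From HS7 to HS14 *Dll1* fell by 1.59 (edgeR adjusted p = 4.93e-07) and *Notch1* by 1.30 (edgeR adjusted p = 0.00134), and *Notch3* did not pass (-0.99, edgeR adjusted p = 0.0175). Of the BMP pathway, whose signal switches on Msx genes in many tissues, 4 of 16 genes had an identifier. These too were each listed by the study at some time, *Grem1* and *Smad6* as lower in HS1 and *Grem1* and *Bmp2* as lower in HS7. Such listings favoured a rise from HS1 or a fall to HS7. From HS1 to HS3 *Bmp2* rose by 1.34 (edgeR adjusted p = 1.06e-09), the inhibitory Smad gene *Smad6* by 2.54 (edgeR adjusted p = 2.68e-16) and the BMP antagonist gene *Grem1* by 2.06 (edgeR adjusted p = 1.93e-18), while *Bmp6* fell by 2.17 (edgeR adjusted p = 2.60e-06). From HS3 to HS7 the directions of all 4 were the opposite, with -4.46 for *Grem1* (edgeR adjusted p = 2.03e-12) and 2.28 for *Bmp6* (edgeR adjusted p = 4.60e-05). A link between these Notch or BMP genes and the levels of the members was not tested.

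The Sox genes were all highest in HS7 yet differed in the other groups. *Sox11*, a gene of neural and mesenchymal precursors, had 25.7 and 23.2 CPM in Control, 34.9 and 35.5 at HS1, 16.4 and 15.7 at HS3, 90.6 and 87.5 at HS7 and 40.7 and 42.1 at HS14. No groups overlapped, and HS3 was the lowest. *Sox11* fell by 1.13 (SE 0.12) from HS1 to HS3 (edgeR adjusted p = 5.33e-09), rose by 2.45 (SE 0.10) from HS3 to HS7 (edgeR adjusted p = 1.45e-09) and fell by 1.10 (SE 0.07) from HS7 to HS14 (edgeR adjusted p = 8.02e-09).

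*Sox6*, which represses slow-fibre genes in developing muscle, had 0.713 and 1.02 CPM in Control, 0.573 and 0.781 at HS1, 0.962 and 1.39 at HS3, 3.60 and 3.56 at HS7 and 0.795 and 0.759 at HS14. HS7 stood apart from the other 4 groups. From HS3 to HS7 *Sox6* rose by 1.56 (SE 0.33, edgeR adjusted p = 0.00227), which did not pass without HS3 replicate 1 (1.34, edgeR adjusted p = 0.0185), and from HS7 to HS14 it fell by 2.19 (SE 0.34, edgeR adjusted p = 7.90e-05). *Sox8*, which is expressed in satellite cells, had 5.26 and 5.69 CPM in Control, 1.06 and 0.955 at HS1, 3.34 and 4.85 at HS3, 6.40 and 10.7 at HS7 and 6.78 and 4.38 at HS14. Its HS1 libraries lay below the other 8, and HS7 and HS14 overlapped. *Sox8* rose by 2.03 (SE 0.34) from HS1 to HS3 (edgeR adjusted p = 1.39e-05) and was higher in HS14 than in HS1 by 2.44 (SE 0.30, edgeR adjusted p = 4.44e-06). Its changes of 1.03 from HS3 to HS7 and -0.60 from HS7 to HS14 did not pass (edgeR adjusted p = 0.0110 and 0.127). Without HS7 replicate 1 both did, at 1.36 (edgeR adjusted p = 1.58e-06) and -0.92 (edgeR adjusted p = 7.25e-05).

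*Klf4* and *Egr3* encode zinc finger factors that respond quickly to serum and growth signals, and EGR3 is needed for muscle spindles. *Klf4* had 28.9 and 28.6 CPM in Control, 20.3 and 22.0 at HS1, 35.9 and 34.8 at HS3, 9.88 and 8.85 at HS7 and 14.3 and 19.6 at HS14. Its range of 3.77-fold between group means was the smallest of the members. *Klf4* fell by 1.93 (SE 0.13) from HS3 to HS7 (edgeR adjusted p = 6.00e-08) and rose by 0.86 (SE 0.16) from HS7 to HS14 (edgeR adjusted p = 0.000484), the latter not passing without HS14 replicate 2 (0.63, edgeR adjusted p = 0.0317). *Egr3* had 2.93 and 2.77 CPM in Control, 0.901 and 1.69 at HS1, 5.27 and 3.42 at HS3, 14.3 and 9.96 at HS7 and 4.18 and 2.82 at HS14. HS7 was above all other libraries and HS1 below them. From HS7 to HS14 *Egr3* fell by 1.77 (SE 0.23, edgeR adjusted p = 2.72e-05), and by 1.49 without HS7 replicate 1.

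Set against Control, the cultures gave 1 member as a higher and 11 as lower DEGs in HS1, where 0.0922% and 2.18% of the 13013 genes tested were respectively. In HS3 there were 2 higher and 3 lower (0.777% and 0.350% of all genes), in HS7 5 higher and 9 lower (1.95% and 1.63%), and in HS14 1 higher and 11 lower (0.524% and 2.01%). These counts follow from how the members were chosen, and nothing is read from them. Without HS3 replicate 1 the 5 members in HS3 became 3. The members' median log2 fold change was 0.60 in HS3 but -1.33 in HS1, -1.17 in HS7 and -1.30 in HS14, beside medians over all genes between -0.01 and 0.01. The 4 comparisons share the Control libraries.

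The comparisons between suspended groups were not used by the rule, though the same suspended libraries entered the choice through Control, so their p-values are not independent of it. From HS1 to HS3, 17 members were higher DEGs and 3 were lower DEGs, against 5.69% and 1.48% of the 13008 genes tested, and 23 of the 26 had an adjusted p under 0.01 in edgeR (30.5% of all genes). The median of the members was 2.14, and -0.01 over all genes. The 17 were 15 of the 16 genes highest in HS3, together with *Egr3* and *Sox8*. *Klf4* (0.75, SE 0.12) was below the fold limit. The 3 lower ones were *Gata3*, *Pax8* and *Six2*, the genes highest in HS1. For the genes grouped by a peak in HS3 or HS1 the direction was fixed by that grouping, and only the size is described. *Hey2*, *Pitx1* and *Sox6* did not pass.

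From HS3 to HS7, 4 members were higher and 16 lower DEGs, against 1.63% and 3.28% of the 13164 genes tested, with a median of -1.94 for the members and 0.00 for all genes. By the adjusted p of 0.01 alone, 21 of the 26 passed in edgeR, and 23.0% of all genes did. The 16 that fell were the 16 highest in HS3, from *Gata6* (-1.81, SE 0.31) to *Msx2* (-4.57, SE 0.38). Their grouping by the HS3 peak fixed this direction beforehand, so only the size of the fall is described. The 4 that rose were *Hey2*, *Heyl*, *Sox6* and *Sox11*, all grouped above by their peak in HS7, which likewise fixed the direction. *Egr3* passed by p (1.47, SE 0.25, edgeR adjusted p = 0.000451) but not by fold, and without HS3 replicate 2 its adjusted p was 0.0111 in edgeR. *Gata3* (0.73), *Pax8* (0.23), *Pitx1* (-1.20), *Six2* (0.93) and *Sox8* (1.03) did not pass.

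From HS7 to HS14 the members moved less. Of the 24 tested, 0 were higher and 2 lower DEGs, *Egr3* and *Sox6*, against 0.214% and 1.82% of the 13109 genes tested. At the adjusted p of 0.01 alone, edgeR gave 1 higher member (*Klf4*) and 4 lower ones (*Egr3*, *Heyl*, *Sox6* and *Sox11*), and 23.5% of all genes passed. The 4 lower ones were grouped above by their peak in HS7, which fixed their direction, and *Klf4* had its lowest mean in HS7. The study listed each of these genes at HS7 only, so only the size of their changes is described. Among the tested genes highest in HS3, the changes other than that of *Klf4* lay between -1.01 (*Gata6*) and 0.70 (*Foxc1*) and did not pass. A p that misses the limit does not show equal levels, and the SE of these changes ran up to 0.49. Without HS7 replicate 2, *Runx1t1* (-1.28, edgeR adjusted p = 0.00390) and *Six2* (1.03, edgeR adjusted p = 0.00430) passed as well, against -0.90 and 0.88 with it (edgeR adjusted p = 0.0668 and 0.0166).

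HS1 and HS14, in both of which most members lay below Control, were compared directly. Here 2 members were higher DEGs in HS14, *Heyl* and *Sox8*, and 2 were lower, *Osr1* and *Pax8*, against 1.38% and 1.21% of the 13015 genes tested. At the adjusted p of 0.01 alone, 9 of the 26 passed in edgeR, where 24.8% of all genes did. The further 5 were *Ebf1*, *Egr3* and *Twist2*, higher in HS14, and *Ebf2* and *Gata3*, lower. For *Gata3* and *Pax8* the grouping by a peak in HS1 fixed the direction. *Ebf1* and *Sox8*, listed by the study at HS1 only, were lowest there, and *Ebf2*, listed at HS14 only, was lowest in HS14. That choice favoured their directions, and for all these genes only the size is described. *Egr3* was higher by 1.42 (SE 0.34, edgeR adjusted p = 0.00301), which did not pass with DESeq2 (adjusted p = 0.0150), without HS1 replicate 1 (edgeR adjusted p = 0.0166) or without HS14 replicate 1 (edgeR adjusted p = 0.0560). *Msx2* passed only without HS1 replicate 2 among the fits that leave out a library (-2.19, edgeR adjusted p = 0.00707), and *Klf4* only without HS14 replicate 2 (-0.58, edgeR adjusted p = 0.000879).

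**Figure D3:**
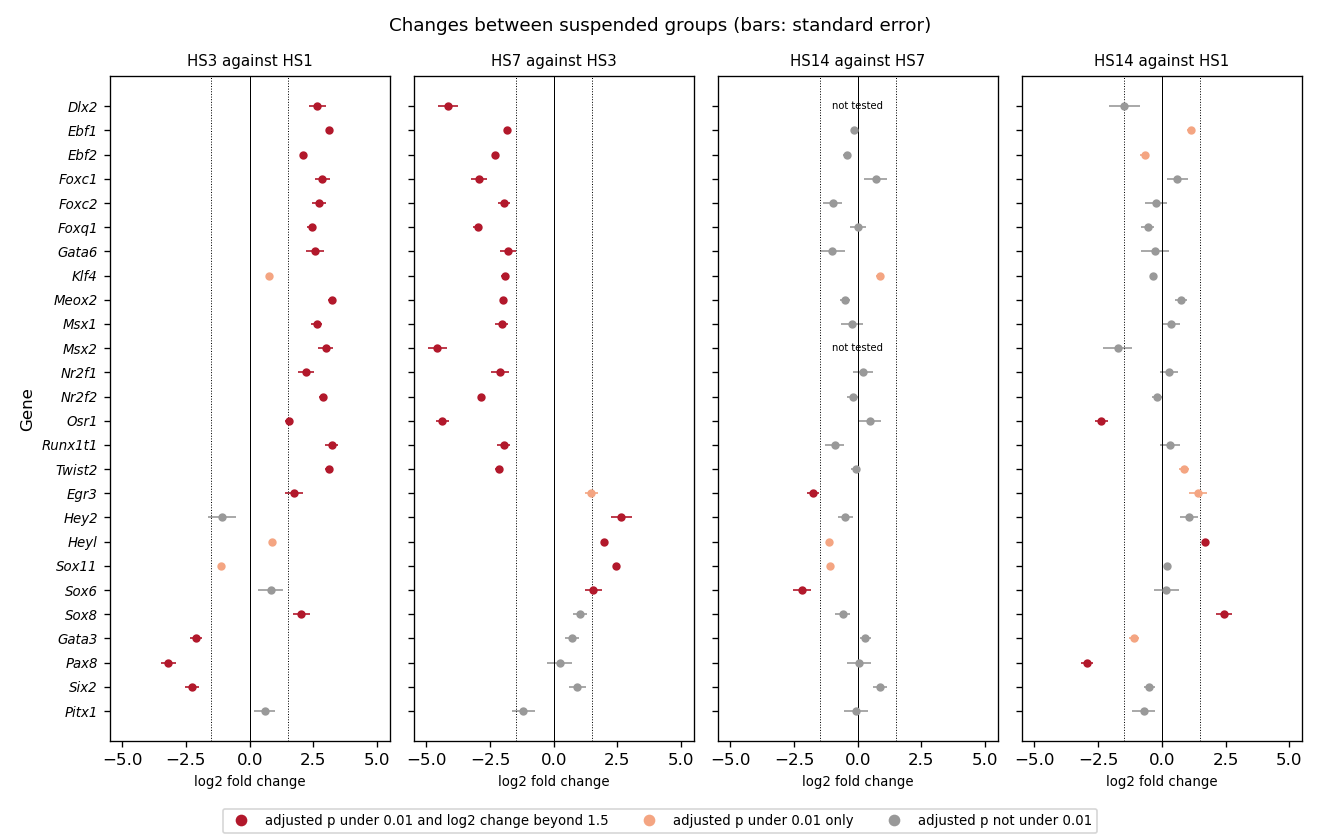
Points show each gene's log2 fold change, first-named group minus second, in 4 comparisons between suspended groups, bars the standard error and dotted lines the limits of 1.5. Dark red marks DEGs, light red an edgeR adjusted p under 0.01 only, and grey the rest. The 16 upper genes lie right of 0 in HS3 against HS1 and left of 0 in HS7 against HS3. Their grouping by the HS3 peak fixed these sides. Most are grey in both other panels, where *Dlx2* and *Msx2* were not tested in HS14 against HS7.

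Markers had an identifier only where the study listed the gene as changed against Control. An unchanged marker could thus not appear in this list or in those below, and the changes given describe listed genes only. Of the markers of fibroblast-type cells with an identifier, 4 (*Col1a1*, *Dpt*, *Pdgfra* and *Thy1*) were highest in HS3 like the 16 genes above. *Dcn* and *Lum* ran differently. Of 8 markers of fibro-adipogenic progenitors and fibroblasts, 6 had an identifier, and their summed level was 7341 and 7817 CPM in Control, 2406 and 2393 at HS1, 15431 and 19499 at HS3, 8271 and 8323 at HS7 and 2990 and 2802 at HS14. That sum was mostly *Col1a1*, a collagen gene, with means of 6779 CPM in Control, 16111 in HS3 and 7786 in HS7, and so shows the course of this gene rather than of the list. All 6 rose from HS1 to HS3, *Pdgfra*, the receptor that defines fibro-adipogenic progenitors, by 3.29 (SE 0.09, edgeR adjusted p = 1.08e-22) and the surface marker gene *Thy1* by 2.59 (SE 0.09, edgeR adjusted p = 1.30e-20). The study listed all 6 as lower in HS1 than in Control, which favoured this rise, so only its size is described. From HS3 to HS7 *Col1a1*, *Dpt*, *Pdgfra* and *Thy1* fell, *Dcn* rose by 1.78 (SE 0.12, edgeR adjusted p = 3.46e-07) and *Lum* did not pass. *Dcn*, a matrix proteoglycan gene, had 166 and 160 CPM in Control, 37.3 and 37.9 at HS1, 80.0 and 75.0 at HS3, 305 and 236 at HS7 and 439 and 455 at HS14. In HS3, where the 16 genes peaked, it thus lay below Control (-1.07, SE 0.07), and it was highest in HS14, where the means of all 16 genes lay below Control. *Lum*, a related proteoglycan gene, had overlapping libraries in HS3 (13.3 and 11.1 CPM) and HS7 (14.3 and 11.6 CPM) and was above Control in HS14 too (9.23 and 9.78 against 7.205 and 6.68 CPM). The myoblast genes with an identifier, *Myog* and *Mymk*, also rose from HS1 to HS3, by 1.87 (SE 0.09, edgeR adjusted p = 1.81e-17) and 1.41 (SE 0.09, edgeR adjusted p = 1.05e-13), and *Myog* lay between 107 and 882 CPM over the 10 libraries. The part of a changing mix of cells in the members' levels was not tested.

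Other lineages were thin or known in part. Of 8 endothelial markers 5 had an identifier, and *Emcn* was at 0 counts in 4 libraries. Summed over the 5, levels were 1.06 to 1.30 CPM in HS1 and 2.38 to 4.71 in Control. They were 8.24 to 9.32 in HS3, 8.77 to 10.7 in HS7 and 13.9 to 15.5 in HS14. That sum joined unlike courses. *Kdr* was highest in HS3 (mean 7.40 CPM) and fell by 1.26 to HS7 (SE 0.23, edgeR adjusted p = 0.000789). *Cdh5*, *Emcn*, *Tie1* and *Vwf* were highest in HS14, *Cdh5* with means of 0.622 CPM in HS3 and 4.79 in HS14. The 3 Schwann cell markers with an identifier, *Erbb3*, *Ngfr* and *S100b*, summed to 5.90 to 7.00 CPM in HS1, 25.1 to 27.3 in Control, 54.5 to 57.8 in HS3, 57.8 to 82.2 in HS7 and 19.0 to 21.5 in HS14, in HS7 mostly through *Erbb3*. The 3 differed in course. *Erbb3* had its highest mean in HS7 (62.0 CPM). *Ngfr* had means of 0.736 CPM in Control, 0.588 in HS1 and 0.655 in HS3, and was highest in HS14 (4.07 CPM). Only *S100b* followed the course of the 16 genes. It had 15.2 and 13.3 CPM in Control, 2.66 and 1.996 at HS1 and 34.5 and 33.3 at HS3. At HS7 it had 5.99 and 6.13 CPM, and at HS14 4.32 and 4.76. It rose by 3.86 (SE 0.17) from HS1 to HS3 (edgeR adjusted p = 4.29e-18) and fell by 2.50 (SE 0.13) from HS3 to HS7 (edgeR adjusted p = 1.04e-08), and its part in the members' levels was not tested. Of the smooth muscle and pericyte markers, 3 had an identifier, and they differed in course. *Pdgfrb* was at 347 and 383 CPM in HS3 and 58.0 and 56.9 in HS1. *Notch3*, also in the Notch list above, had means of 31.5 CPM in Control and 28.1 in HS3, and was highest in HS7 (136 CPM). *Rgs5* reached at most 1.28 CPM. The study listed *Pdgfrb* and *S100b* as lower in HS1 than in Control, which favoured their rise from HS1. Immune markers had no identifier and were not analysed here, nor were *Pax7* and *MyoD*, the defining markers of satellite cells and myoblasts.

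**Figure D4:**
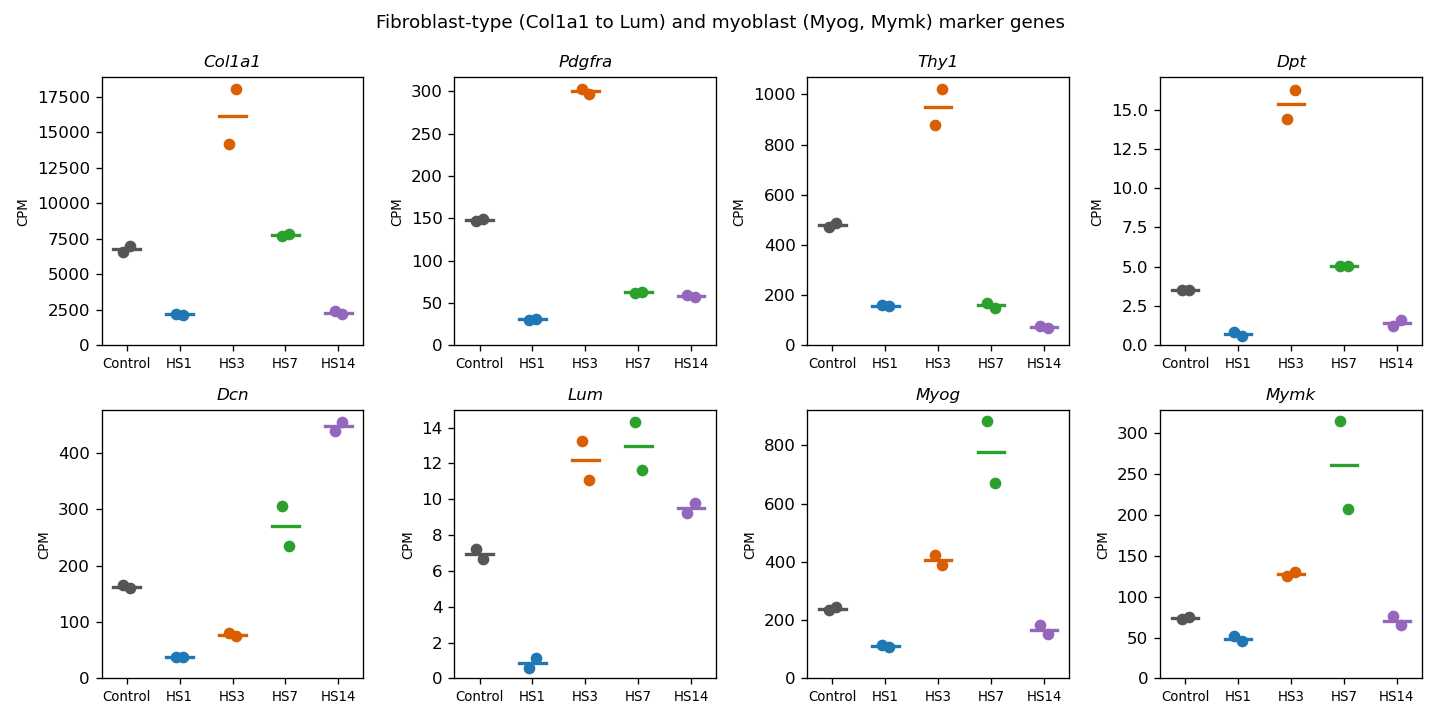
CPM of 6 fibroblast-type marker genes and of the myoblast genes *Myog* and *Mymk* in the 5 groups, with points for libraries, bars for group means and axes from 0. *Col1a1*, *Pdgfra*, *Thy1* and *Dpt* are highest in HS3, *Lum* overlaps between HS3 and HS7, *Dcn* is highest in HS14, and *Myog* and *Mymk* are highest in HS7, where their 2 libraries differ.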

How the data were processed

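The study made stranded poly(A) RNA libraries, mapped the reads with STAR and counted them per gene with featureCounts 1.6.4. The authors deposited raw counts of 32622 Ensembl genes without normalization. The genome build is mRatBN7.2 in the study's methods and Rnor_6.0 in the submitters' processing notes, and the settings for strand, read pairs and multiply mapped reads are not given in the sources used here, so counts of overlapping genes are uncertain.

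Symbols and gene identifiers came from the study's list of differentially expressed genes, and other genes of these families were not analysed here. Its fold changes and p-values were not used. The members, the marker and pathway lists and the tests were chosen with earlier results of these data known. Groups follow the sample titles. For each comparison the 4 libraries were fitted in edgeR 4.0.16 (R 4.3.3, limma 3.58.1) with filterByExpr, TMM (factors 0.966 to 1.03), the robust quasi-likelihood test and a prior count of 0.125. CPM used TMM factors of all 10 libraries. Alternatives were DESeq2 1.42.0, RLE factors, no filter, 1 fit of all libraries, the replicate block, a fold limit of 1 and leaving out each library. The fits were tried on simulated data in which only well-expressed genes changed, with the same spread for all genes. That trial does not cover the members with low counts. Every member is named, with all 10 values where at least 2 libraries reached 1 CPM, as all 26 did. Nothing was read from the promoter windows beyond letters.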

Additional observations from a re-analysis of the deposited data

Results flagged for a closer look

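Opposite departures from Control at different times of suspension, each beyond 1 on the log2 scale, with the difference between the suspended groups itself a DEG in edgeR, were found 11 times in 7 genes. They bear on the same libraries as the comparisons above, so they add no evidence to them.

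Between HS1 and HS3 there were 6 such genes. *Foxc1* (-1.66 in HS1, 1.18 in HS3) differed by 2.85, *Gata6* (-1.35 and 1.20) by 2.56, and *Msx2* (-1.45 and 1.54) by 2.99. *Nr2f2* (-1.58 and 1.28) differed by 2.87 and *Runx1t1* (-1.31 and 1.90) by 3.22. *Pax8* alone of these ran the other way (1.58 and -1.63), with a difference of -3.19.

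Between HS3 and HS7, 4 genes turned from above to below Control. The difference was -2.94 for *Foxc1* (1.18 in HS3, -1.73 in HS7), -4.57 for *Msx2* (1.54 and -3.01), -2.85 for *Nr2f2* (1.28 and -1.54) and -4.37 for *Osr1* (1.30 and -3.04). Between HS1 and HS14, *Pax8* turned from 1.58 to -1.35, a difference of -2.94. With 2 libraries per group, no group was large enough to look for single libraries that stand apart.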

How the results depend on the processing

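The counts of members that were DEGs stayed within 1.5 times their value under DESeq2, RLE factors, no filter, all 10 libraries in 1 fit and the replicate block, in all 8 comparisons. With a fold limit of 1 in place of 1.5, the 5 members in HS3 against Control became 9, the 2 in HS14 against HS7 became 4 and the 4 in HS14 against HS1 became 7. Leaving out 1 library at a time, it ranged from 3 to 5 in HS3 against Control (3 without HS3 replicate 1) and from 1 to 2 in HS14 against HS7 (1 without HS7 replicate 1). The replicate block, fitted because the groups share replicate numbers, gave 20 members in HS3 against HS1 and 20 in HS7 against HS3, as without it. Deviations of same-numbered libraries correlated by -0.0165 to 0.0417 over 10 pairs of groups. No sign of pairing by number was seen, though with 2 libraries per group this cannot show its absence.

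Over the 4 comparisons between suspended groups, 918 fits of a member under an alternative were made, of which 874 kept direction and side of the adjusted p of 0.01, 11 lost it, 17 gained it and 16 changed sign. All sign changes came from leaving out a library in changes that did not pass. In HS14 against HS7 the range was -0.95 to 0.33 for *Msx1*, -0.45 to 0.70 for *Pax8*, -0.25 to 0.26 for *Foxq1*, -0.18 to 0.72 for *Nr2f1*, -0.19 to 0.02 for *Twist2*, -0.42 to 0.01 for *Nr2f2* and -0.43 to 0.18 for *Pitx1*. In HS14 against HS1 it was -0.04 to 0.42 for *Sox6*, -0.59 to 0.21 for *Foxc2*, -0.93 to 0.21 for *Gata6*, -0.38 to 0.83 for *Msx1* and -0.41 to 0.02 for *Nr2f2*, and in HS7 against HS3 -0.43 to 0.69 for *Pax8*. In a fit without 1 library the lone library of that group is assumed to vary like the other group. The cause of these shifts was not tested. Depth limits the members near the detectable level, whose changes between suspended groups had an SE of up to 0.60.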
